A study of Drosophila melanogaster with 12 samples.

Results

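The 10 genes described here encode machinery that opens and copies DNA in S phase: the 6 subunits of the MCM helicase (Mcm2, Mcm3, dpa, Mcm5, Mcm6 and Mcm7, where dpa is the fly name of Mcm4), the sliding clamp PCNA, both subunits of ribonucleotide reductase (RnrL and RnrS) and the S phase cyclin CycE. They were picked out by FlyBase symbol from transcriptomes of Drosophila melanogaster guts mutant for Hinfp, an X-linked zinc finger gene whose vertebrate counterpart controls histone gene transcription. All 10 were found among 16524 gene rows of the pharate table and among 15651 gene rows of the adult table, and all 10 passed the filter on low counts in the pharate set.

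The MCM subunits form a ring that is loaded on origins of replication by the origin recognition complex with Cdc6 and Cdt1 (double parked, dup, in flies), and that unwinds DNA once Cdc45 and the GINS complex join it. PCNA holds the polymerases on their template, ribonucleotide reductase makes deoxynucleotides, and CycE with Cdk2 starts S phase. In the fly midgut, intestinal stem cells divide, while enterocytes copy their DNA without division in endocycles, and the E2F and Rb family proteins control many of these genes.

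RNA came from male guts. The pharate set (fully formed adults still in the pupal case, guts with Malpighian tubules) held 2 libraries each of the Hinfp2 deletion mutant, the Hinfp3 point mutant, the FRT19A control strain and the W1118 control strain. The adult set (labelled intestine) held 1 library each of the Hinfp2 mutant with UAS-Hinfp-HA driven by tub-Gal4 (Hinfp rescue), the Hinfp2 mutant with UAS-His1-HA driven by the same tub-Gal4 (His1 rescue), the Hinfp2 mutant alone and the FRT19A control. The design text gave the genotypes of the adult set as Y/Hinfp2 or Y/FRT19A. The tubulin driver acts throughout the body, so the transgenes were not limited to the gut. About 50 guts were pooled per sample and flies were kept at 25 °C. Mutants and rescues were 8 to 9 days old and controls 5 to 6 days old, so age and genotype cannot be told apart. The labels did not say which of these ages applied to the pharate flies, nor whether the libraries within a group had separate cultures behind them. The p-values therefore cover the spread among these libraries alone, and part of it may be technical.

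The titles of the pharate libraries carry the tag SE (replicate 1) or PE (replicate 2), 1 of each per group, and the labels did not spell the tags out. Gene counts ranged from 21924226 to 28740669 in pharate libraries and from 17991664 to 20271512 in adult libraries. Hinfp itself (BDGP6 chromosome X, 625542 to 628016) averaged 7.35 ± 1.91 CPM (read counts scaled to library size) in pharate mutants and 13.4 ± 3.39 CPM in pharate controls (SD, n = 4 each). That difference, -0.87 on the log2 scale, did not pass the test (edgeR quasi-likelihood, Benjamini-Hochberg adjusted p = 0.0837), but passed once replicate number was added as a block (-0.84, adjusted p = 0.0302). The linker histone row HIS1 had 3 to 41 counts in pharate mutant libraries, against 136 to 5281 in control libraries (log2 -7.07, edgeR Benjamini-Hochberg adjusted p = 0.0353). The control counts split by replicate, with 166 and 136 in replicate 1 and 3999 and 5281 in replicate 2 of FRT19A and W1118. With the block the value was -5.90 (edgeR Benjamini-Hochberg adjusted p = 0.00796). The call without the block was lost on leaving out any 1 of the 4 mutant libraries, or replicate 2 of FRT19A or of W1118, with adjusted p from 0.0745 to 0.107. In adults Hinfp had 28734 counts in the Hinfp rescue, 114 in the His1 rescue, 95 in the Hinfp2 mutant and 244 in the control.

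All 10 replication genes stood lower in pharate Hinfp mutants than in controls, and 7 of them passed the test: Mcm2, Mcm3, dpa, Mcm5, Mcm6, PCNA and RnrL. Over the 13244 genes tested, 6.34% were called lower and 4.59% higher. The median log2 fold change was -1.53 over the 10 genes and -0.01 over all genes. Among the 7 called genes the log2 fold change ranged from -2.20 for PCNA to -1.40 for dpa. No called gene had a mutant library at or above its lowest control library. That was not counted over all genes, and the calls came from the same libraries, so it adds no support. Because these are whole guts, fewer cells in S phase and less RNA per cell cannot be told apart.

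Mcm2 (3R, 8264970 to 8267924, plus strand) had 5.64 and 7.18 CPM in the SE and PE libraries of the deletion mutant and 6.92 and 8.13 CPM in those of the point mutant, against 20.5 and 26.8 CPM in FRT19A controls and 14.1 and 23.1 CPM in W1118 controls. The lowest control, W1118 SE, was still well above the highest mutant. Its log2 fold change was -1.6 (SE 0.24, edgeR Benjamini-Hochberg adjusted p = 0.00883).

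Mcm3 (X, 5323855 to 5326738, plus strand), which sits beside Mcm5 in the ring, had 3.66 and 4.28 CPM in the deletion mutant and 3.82 and 4.79 CPM in the point mutant, against 12.0 and 18 CPM in FRT19A controls and 10.5 and 17.5 CPM in W1118 controls. All 4 mutant libraries fell within a narrow span below the controls, and PE libraries were the higher ones in every group. Its log2 fold change was -1.81 (SE 0.25, edgeR Benjamini-Hochberg adjusted p = 0.00739). CG3309, on the opposite strand, overlaps 64 exon bases of Mcm3.

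The Mcm4 gene dpa (2R, 7496702 to 7500145, minus strand) had 10.9 and 9.89 CPM in the deletion mutant and 12.2 and 12.4 CPM in the point mutant, against 34.3 and 32.4 CPM in FRT19A controls and 21.7 and 31.7 CPM in W1118 controls. W1118 SE was again the lowest control. Its log2 fold change was -1.40 (SE 0.19, edgeR Benjamini-Hochberg adjusted p = 0.00733).

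Mcm5 (3R, 10788524 to 10791150, plus strand) showed the largest fall of the called MCM subunits. It had 3.18 and 4.65 CPM in the deletion mutant and 3.18 and 3.60 CPM in the point mutant, against 15.2 and 17.3 CPM in FRT19A controls and 8.99 and 13.7 CPM in W1118 controls. Here the control strains were furthest apart among the 10 genes, with a log2 difference of -0.52 for W1118 over FRT19A. Against both strains together the log2 fold change was -1.92 (SE 0.27, edgeR Benjamini-Hochberg adjusted p = 0.00772).

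Mcm6 (X, 6674387 to 6677176, plus strand, annotated with a single exon) had 8.45 and 7.23 CPM in the deletion mutant and 7.33 and 8.74 CPM in the point mutant, against 22.6 and 25.9 CPM in FRT19A controls and 18.1 and 20.3 CPM in W1118 controls. Neither the allele nor the title tag ordered the mutant values. With a log2 fold change of -1.45 (SE 0.17) it had the smallest adjusted p of the 10 genes (0.00567, edgeR with Benjamini-Hochberg adjustment).

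Mcm7 (3L, 8891596 to 8894310, plus strand) did not pass the test, and its libraries split by title tag rather than by genotype alone. Its SE libraries had 1.02 CPM in the deletion mutant and 1.20 CPM in the point mutant, against 4.48 CPM in FRT19A and 2.65 CPM in W1118. Its PE libraries had 5.66 CPM in the deletion mutant and 8.92 CPM in the point mutant, against 23.7 CPM in FRT19A and 21.4 CPM in W1118. Within each tag every mutant library lay below every control library, although the PE mutants lay above the SE controls. The log2 fold change was -1.64 (SE 0.95, edgeR Benjamini-Hochberg adjusted p = 0.343). With the replicate number as a block it was -1.65, with an edgeR Benjamini-Hochberg adjusted p = 0.00354.

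The ratio of PE to SE level within a group ran from 5.29 to 8.06 for Mcm7, and from 0.452 to 1.93 for the other 9 genes. A noncoding gene on the opposite strand, asRNA:CR45871, overlaps 2003 exon bases of Mcm7, and it was credited with 0 to 6 counts per library. Whether the counting used strand is not given in the sources used here, so reads of the pair cannot be told apart, and their part in the SE level of Mcm7 was not tested.

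PCNA (2R, 20261754 to 20262883, minus strand) fell most of the 10 genes. It had 9.26 and 4.19 CPM in the SE and PE libraries of the deletion mutant and 8.79 and 5.18 CPM in those of the point mutant, against 40.9 and 28.8 CPM in FRT19A controls and 27.2 and 29.3 CPM in W1118 controls. Both mutant PE libraries lay below both mutant SE libraries, and FRT19A SE stood above the other controls. The log2 fold change was -2.20 (SE 0.31, edgeR Benjamini-Hochberg adjusted p = 0.00772). Mutant PCNA stood at 26.5% of control in SE libraries and at 16.1% in PE libraries, a difference of -0.72 on the log2 scale that did not pass the interaction test (edgeR, Benjamini-Hochberg adjusted p = 0.349). None of the 10 genes passed that test (0 at an unadjusted p under 0.05 by edgeR), which called 0.264% of genes with a lower and 5.81% with a higher PE effect.

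RnrL (2L, 10325026 to 10327943, minus strand), the large catalytic subunit of ribonucleotide reductase, had 22.5 and 28.8 CPM in the deletion mutant and 25.1 and 29.6 CPM in the point mutant, against 74.1 and 81.2 CPM in FRT19A controls and 44.5 and 85.7 CPM in W1118 controls. W1118 SE was the control nearest to the mutants. Its log2 fold change was -1.43 (SE 0.22, edgeR Benjamini-Hochberg adjusted p = 0.0108).

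RnrS (2R, 11983145 to 11985393, minus strand), the small subunit that carries the radical needed for catalysis, stood closer to its control level. It had 59.7 and 95.6 CPM in the deletion mutant and 53.0 and 74.1 CPM in the point mutant, against 105 and 152 CPM in FRT19A controls and 67.3 and 120 CPM in W1118 controls. The classes overlapped, since W1118 SE lay below both mutant PE libraries, but within each tag they did not. The log2 fold change of -0.65 (SE 0.28) did not pass the test (edgeR, Benjamini-Hochberg adjusted p = 0.194). The blocked fit gave -0.65 and an edgeR Benjamini-Hochberg adjusted p = 0.0273.

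The reductase subunits thus stood in different proportion, a comparison chosen after their values were seen. Counts of RnrS per count of RnrL were 2.65 and 3.32 in the SE and PE libraries of the deletion mutant and 2.11 and 2.5 in those of the point mutant, against 1.42 and 1.88 in FRT19A and 1.51 and 1.39 in W1118. Every mutant library had a higher ratio than every control library. In adults the ratio was 2.62 in the Hinfp rescue, 2.07 in the His1 rescue, 2.77 in the Hinfp2 mutant and 1.48 in the control.

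CycE (2L, 15727581 to 15748150, minus strand) had 14.8 and 11.5 CPM in the deletion mutant and 14.2 CPM in both libraries of the point mutant, against 19.2 and 14.7 CPM in FRT19A controls and 15.8 and 17.6 CPM in W1118 controls. FRT19A PE lay just below deletion SE, so the classes overlapped. The log2 fold change was -0.30 (SE 0.16) and failed both the main test (edgeR, Benjamini-Hochberg adjusted p = 0.308) and the blocked fit (0.110). Noncoding genes on the opposite strand, lncRNA:CR44974 and asRNA:CR44866, overlap 98 and 150 exon bases of CycE.

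**Figure D1:**
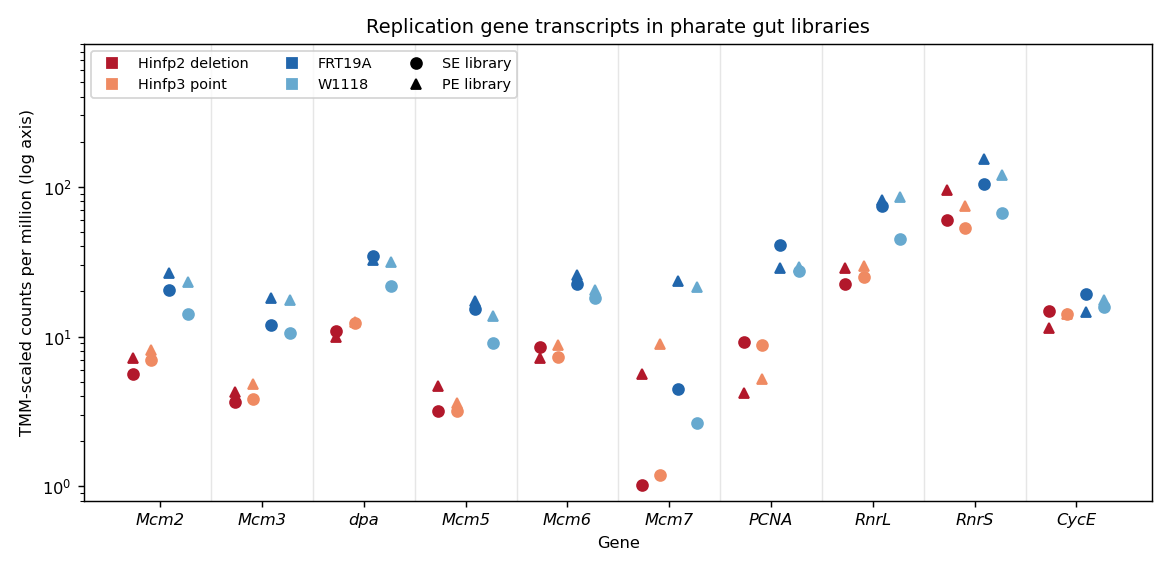
TMM-scaled CPM of the 10 genes in the 8 pharate libraries, on a log axis, with colour for the genotype and shape for the title tag (circle SE, triangle PE). For 7 genes all mutant points lie below all control points. Mcm7 splits by shape, RnrS and CycE overlap.

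The calls of these 7 genes were kept when any 1 of the 8 libraries was left out, with an edgeR Benjamini-Hochberg adjusted p of at most 0.0460. With the block, 9 of the 10 genes were called lower, all but CycE, where the blocked fit called 19.2% of all genes lower and 12.3% higher. In SE libraries alone no gene of the table was called. There 8 of the 10 had an unadjusted p under 0.05 by edgeR, as did 3046 of the 12474 genes tested. With W1118 as the only control, Mcm6 alone kept its call (edgeR, Benjamini-Hochberg adjusted p = 0.0481).

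Scaled to annotated length, RnrS was the most abundant of the 10 transcripts at 44.3 CPM per kb in mutants and 69.8 CPM per kb in controls. In controls PCNA (6.41 CPM per kb in mutants, 29.5 in controls) and RnrL (10.3 in mutants, 27.7 in controls) followed at nearly the same level. The MCM subunits lay between 1.49 and 3.70 CPM per kb in mutants and between 5.28 and 9.78 CPM per kb in controls. CycE was at 2.71 CPM per kb in mutants and 3.33 in controls. In controls it was the lowest of the 10 genes, while in mutants only dpa and Mcm6 of the MCM subunits exceeded it.

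Each subunit's share of the length-scaled sum of the 6 MCM subunits is given as a description, by title tag because the tag moved Mcm7. In SE libraries dpa made up 30.7% of that sum in the deletion mutant and 32.7% in the point mutant, against 28.8% in FRT19A and 26.2% in W1118. In PE libraries it made up 22.9% in the deletion mutant and 24.0% in the point mutant, against 20.2% in FRT19A and 22.3% in W1118. With all 6 subunits in the sum, the dpa share was thus higher in each mutant library than in each control library of the same tag. Without Mcm7 in the sum this did not hold in PE libraries, at 27.44% in the deletion mutant and 27.49% in W1118. The dpa share did not differ between 4 mutant and 4 control libraries by an exact permutation test (p = 0.314, and 0.0857 without Mcm7). The share of Mcm5 was 11.2% and 10.7% in the SE libraries of the deletion and the point mutant, against 16.0% in FRT19A and 13.6% in W1118. In PE libraries it was 13.5% in the deletion mutant and 8.73% in the point mutant, against 13.5% in FRT19A and 12.1% in W1118, so the Mcm5 shares overlapped there.

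Both alleles stood below both control strains. All 10 genes were lower in each of these comparisons, with a median log2 fold change of -1.78 for the deletion and -1.55 for the point mutant against FRT19A, and of -1.45 for the deletion and -1.25 for the point mutant against W1118. These comparisons share libraries and are not independent of each other. With 2 libraries per group edgeR called 0 of the 10 genes after Benjamini-Hochberg adjustment in any of them, and 0% of all genes. In each, 7 of the 10 had an unadjusted p under 0.05 by edgeR. So did 1949, 1840, 1652 and 1594 of all 13244 genes in that order, counting either direction. DESeq2 called 7 of 10 lower in each, beside 474, 413, 350 and 304 of 16524 genes. With the replicate block edgeR called 9, 9, 8 and 5 of the 10 lower in the same order, beside 7.26%, 5.01%, 3.19% and 2.33% of all genes.

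PCNA fell by 2.37 in the deletion and by 2.32 in the point mutant on the log2 scale against FRT19A (SE 0.50 each). Mcm5 fell by 2.05 in the deletion (SE 0.38) and by 2.26 in the point mutant (SE 0.38), and RnrS by 0.73 and 1.02 (SE 0.41 and 0.42). Between the alleles, deletion over point, the 10 genes ran from -0.60 for Mcm7 to 0.29 for RnrS, and 0 were called (0 at an unadjusted p under 0.05, and 0 by DESeq2). Each of those differences was smaller than its own standard error, which does not show that the alleles act alike. W1118 over FRT19A ran from -0.52 for Mcm5 to -0.02 for CycE with a median of -0.31, lower in 10 of 10 genes, and likewise 0 were called (0 at an unadjusted p under 0.05, and 0 by DESeq2).

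Adult Hinfp2 mutant intestine had lower levels of the same transcripts. With 1 library per genotype there was no test, and a difference counted when it reached 1.5-fold with at least 10 counts in either library. By that rule 9 of the 10 genes were lower in the adult Hinfp2 mutant than in the adult control, beside 25% of all genes. The median log2 ratio was -1.70 over the 10 genes and 0.13 over all genes. Intervals given for adults cover counting error only, as 95% exact limits.

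PCNA again changed most, with 95 counts (4.86 CPM) in the Hinfp2 mutant and 508 counts (25.9 CPM) in the control, a log2 ratio of -2.41 (95% interval -2.75 to -2.10). Mcm5 had 61 counts in the mutant and 298 in the control (log2 -2.28), and Mcm3 had 98 in the mutant and 442 in the control (log2 -2.17). Mcm7, which did not pass the pharate test without the block, had 103 counts in the adult mutant and 428 in the control (log2 -2.05, interval -2.38 to -1.74).

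The other helicase subunits followed at smaller ratios. Mcm2 had 151 counts in the mutant and 497 in the control (log2 -1.71), Mcm6 had 145 and 469 (log2 -1.69) and dpa had 225 and 581 (log2 -1.36). RnrL had 508 counts in the mutant and 1503 in the control (log2 -1.56), and RnrS had 1408 and 2225 (log2 -0.66, interval -0.75 to -0.56). CycE, with 142 counts in the mutant and 200 in the control, was the gene short of 1.5-fold (log2 -0.49, interval -0.81 to -0.17).

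The adult Hinfp2 mutant therefore ranked the genes much as the pharate deletion mutant did against its own FRT19A control. Between these 2 comparisons, which share no library, the log2 values had a Pearson r of 0.96 and a Spearman rho of 0.93 across the 10 genes, given as a description since genes are not replicates. The largest gap between them was 0.32, for dpa. In the authors' deposited table the log2 fold changes of the adult mutant ran from -2.48 for PCNA to -0.56 for CycE.

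Neither rescue brought the replication genes to the level of the control. The Hinfp rescue, with 28734 Hinfp counts, had all 10 genes at least 1.5-fold below the control, beside 22.5% of all genes, with a median log2 ratio of -2.0, against about 0 over all genes. The His1 rescue also had all 10 at least 1.5-fold below the control, beside 21.5% of all genes, with a median of -1.23, against about 0 over all genes. These comparisons use the same control library as the mutant.

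PCNA had 61 counts in the Hinfp rescue, 139 in the His1 rescue, 95 in the Hinfp2 mutant and 508 in the control. RnrL had 304 in the Hinfp rescue, 588 in the His1 rescue, 508 in the Hinfp2 mutant and 1503 in the control. The Hinfp rescue was thus the lowest and the control by far the highest for both genes.

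For Mcm2 the counts were 100 in the Hinfp rescue, 182 in the His1 rescue, 151 in the Hinfp2 mutant and 497 in the control. Mcm6 had 157 in the Hinfp rescue, 229 in the His1 rescue, 145 in the Hinfp2 mutant and 469 in the control. Among the 6 MCM subunits the His1 rescue came closest to the control for Mcm6, at 53.8% of it, and stood furthest below it for Mcm3, at 28.4%.

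The other subunits kept the control on top. Mcm3 had 87 counts in the Hinfp rescue, 114 in the His1 rescue, 98 in the Hinfp2 mutant and 442 in the control. For dpa the counts were 144 in the Hinfp rescue, 263 in the His1 rescue, 225 in the Hinfp2 mutant and 581 in the control. In both genes the Hinfp rescue was lowest, with counting intervals that overlapped the mutant for Mcm3. Scaled to library size, Mcm3 was nearly equal in the Hinfp rescue (4.97 CPM) and the mutant (5.01 CPM).

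Mcm5 had 60 counts in the Hinfp rescue, 99 in the His1 rescue, 61 in the Hinfp2 mutant and 298 in the control. Mcm7 had 113 in the Hinfp rescue, 163 in the His1 rescue, 103 in the Hinfp2 mutant and 428 in the control. RnrS had 796 in the Hinfp rescue, 1217 in the His1 rescue, 1408 in the Hinfp2 mutant and 2225 in the control. For Mcm5 and Mcm7 the Hinfp rescue was close to the mutant and the His1 rescue above both. For RnrS both rescues had fewer counts than the mutant. Scaled to library size, RnrS was at 45.5 CPM in the Hinfp rescue, 68.4 CPM in the His1 rescue and 72.0 CPM in the mutant.

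CycE was lower in both rescues than in the mutant. It had 67 counts in the Hinfp rescue, 80 in the His1 rescue, 142 in the Hinfp2 mutant and 200 in the control. Its log2 ratio to the control was -1.41 in the Hinfp rescue, -1.18 in the His1 rescue and -0.49 in the mutant.

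**Figure D2:**
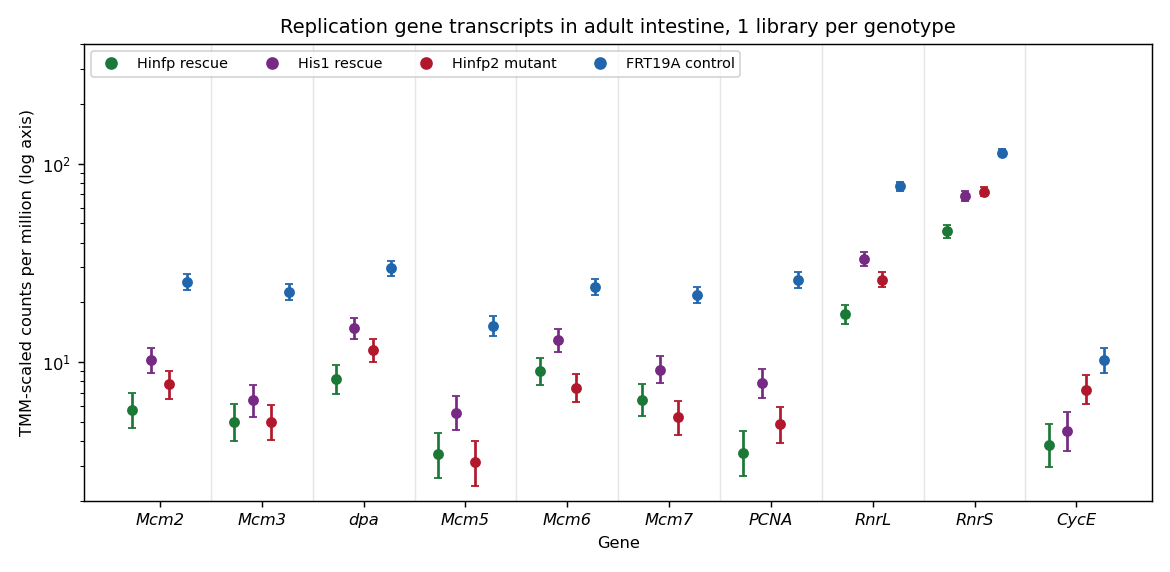
TMM-scaled CPM of the 10 genes in the 4 adult libraries, on a log axis, with bars for exact 95% Poisson intervals of the counts. The control is the highest point for each gene, and the His1 rescue lies at least 1.5-fold above the Hinfp2 mutant for Mcm5, Mcm6, Mcm7 and PCNA.

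Against the Hinfp2 mutant, the Hinfp rescue had 7 of 10 genes lower, and its interval lay below 0 for 6 of them and above 0 for 0. RnrS (log2 -0.66) and CycE (log2 -0.92) were at least 1.5-fold lower, where 34.4% of all genes were. That count of 2 was 6 when scaled by library totals and 0 at 2-fold. The 3 genes above the mutant were Mcm5 (0.14), Mcm6 (0.27) and Mcm7 (0.29), each with an interval that included 0, and Mcm5 stood at -0.02 with library totals.

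The His1 rescue had 8 of 10 genes above the Hinfp2 mutant, and its interval lay above 0 for 7 of them. Mcm5 (log2 0.84), Mcm6 (0.80), Mcm7 (0.80) and PCNA (0.69) were at least 1.5-fold higher, where 18.6% of all genes were. RnrS stood at -0.07 with an interval from -0.19 to 0.04, and CycE was more than 1.5-fold lower at -0.69, where 33.4% of all genes were. Both rescues are set against the same mutant library.

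Set against each other, the Hinfp rescue was below the His1 rescue for all 10 genes, and at least 1.5-fold for 6, where 11% of all genes were lower by that much. The log2 ratio of the Hinfp rescue over the His1 rescue was -1.17 for PCNA, -0.93 for RnrL, -0.85 for dpa, -0.84 for Mcm2, -0.70 for Mcm5 and -0.59 for RnrS. For CycE it was -0.23, with an interval from -0.72 to 0.25.

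**Figure D3:**
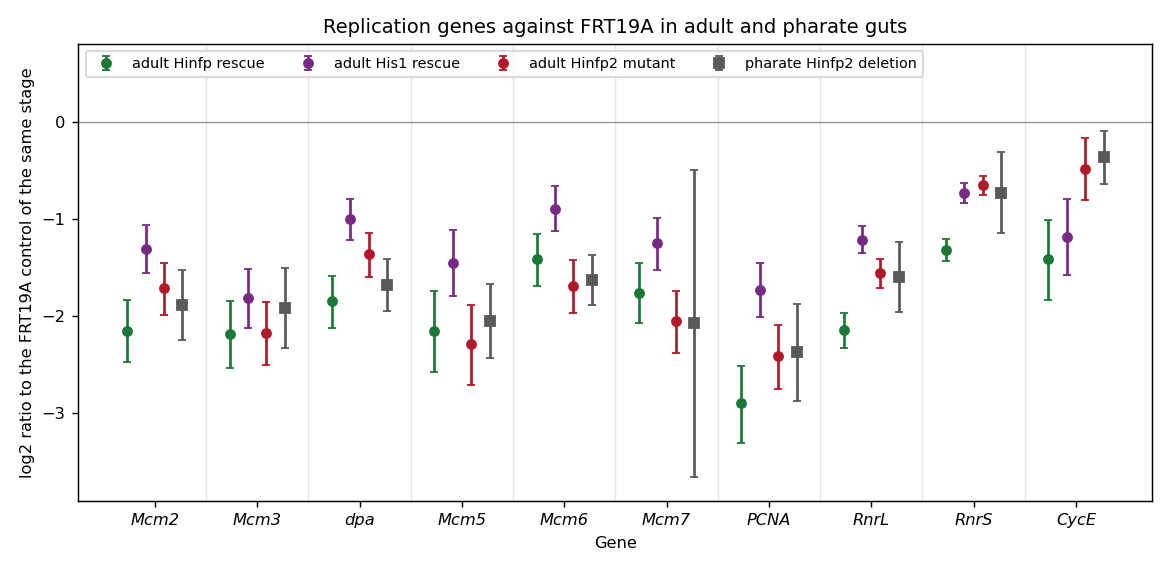
log2 ratio to the FRT19A control of the same stage for the 10 genes, in the adult Hinfp rescue, His1 rescue and Hinfp2 mutant (circles, bars 95% counting intervals) and in the pharate Hinfp2 deletion mutant (squares, bars standard errors of the edgeR fit). The adult mutant and the pharate deletion mutant lie within 0.32 of each other for each gene, and every point is below 0.

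RNA of male germline genes differed between these libraries. In adults the 23 testis and germline markers summed to 20.2 CPM in the Hinfp rescue, 34.5 CPM in the His1 rescue, 1169 CPM in the Hinfp2 mutant and 37.1 CPM in the control, with 6, 5, 0 and 5 of them at 0 counts in that order. In pharate guts they summed to 408 to 996 CPM in mutants, against 43.2 and 59.2 CPM in PE controls and 550 and 690 CPM in SE controls, and 1 of 22 tested, bam, was called higher. With the block 3 were called higher. Of all genes 4.59% were called higher, and 12.3% with the block. In the adult Hinfp2 mutant the all-gene median log2 ratio was 0.13 with TMM and 0.30 with library totals. The part of germline transcripts in the values of the replication genes was not tested.

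Over all genes 6.34% were called lower and 4.59% higher in pharate mutants (19.2% and 12.3% with the block). Of 11 stem cell and progenitor markers, 0 were called lower and 1 higher (median log2 0.08; 0 and 2 with the block). The called gene was E(spl)malpha-BFM, a Notch target (3.53 ± 0.40 CPM in mutants and 0.888 ± 0.252 CPM in controls, SD, n = 4 each, edgeR Benjamini-Hochberg adjusted p = 0.0108). The 11 markers summed to 114.6 to 230.3 CPM in mutants and 92.9 to 213 CPM in controls. These sums lean on hdc, the most abundant of the 11, which averaged 93.8 CPM in mutants and 55.2 CPM in controls. In adults the 11 markers summed to 120 CPM in the Hinfp rescue, 163 CPM in the His1 rescue, 99.3 CPM in the Hinfp2 mutant and 78.5 CPM in the control.

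Single stem cell genes, named for their role and outside the rule for naming, differed from each other. The progenitor factor esg had 16.4 CPM in the Hinfp rescue, 27.5 CPM in the His1 rescue, 4.81 CPM in the Hinfp2 mutant and 9.43 CPM in the adult control. The Notch ligand Dl had 14.6 CPM in the Hinfp rescue, 15.7 CPM in the His1 rescue, 11.2 CPM in the Hinfp2 mutant and 10.9 CPM in the control. Sox21a had 6.45 CPM in the Hinfp rescue, 11.2 CPM in the His1 rescue, 3.48 CPM in the Hinfp2 mutant and 1.27 CPM in the control. The Notch gene N had 25.3, 34.9, 17.6 and 24.4 CPM in the same order. In pharate guts the log2 fold change was -0.39 for esg, 0.08 for Dl, 1.18 for Sox21a and -0.43 for N (edgeR, Benjamini-Hochberg adjusted p = 0.438, 0.919, 0.0588 and 0.678).

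Calls in the other gut lists stand beside 4.59% of all genes called higher and 6.34% lower (12.3% and 19.2% with the block). No list was tested against these shares. In pharate mutants, enterocyte markers had 2 of 10 called higher and 0 lower (median 0.45; 3 higher and 1 lower with the block). Among them Amy-p, a digestive amylase, stood at 1578 CPM in mutants and 518 CPM in controls. Enteroendocrine markers had 3 of 10 called lower and 0 higher (median -0.68; 6 lower and 1 higher with the block), among them the peptide hormone gene Tk at 67.6 ± 4.47 CPM in mutants and 139 ± 20.6 CPM in controls (SD, n = 4 each). Visceral muscle (8 genes, median -0.36) and fat body and hemocyte lists (10 genes, median -0.06) had 0 called in either direction by edgeR, with 2 and 3 genes at an unadjusted p under 0.05 and 1 and 2 called by DESeq2. Over all genes 3438 of 13244 had an unadjusted p under 0.05 by edgeR, and DESeq2 called 1514 of 16524 lower and 1215 higher. With the block 1 muscle gene was called lower and 2 fat body and hemocyte genes higher. Malpighian tubule markers had 2 of 11 called higher and 0 lower (median -0.35; 2 higher and 2 lower with the block), with Uro, the urate oxidase, at 1013 CPM in mutants and 49.2 CPM in controls. Except for Tk and E(spl)malpha-BFM, the calls of the genes named here in these marker lists were lost on leaving out single libraries: all 8 for bam, 7 for Amy-p (all but W1118 replicate 1) and 3 for Uro (both point libraries and deletion replicate 2), with adjusted p of up to 0.108, 0.129 and 0.0523. The part of these cell types in the replication genes was not tested.

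Part of the remaining replication machinery was also called lower. Over 5 lists of origin, helicase activation, polymerase, lagging strand and nucleotide genes, 20 of 43 genes were called lower and 0 higher in pharate mutants, with 40 of 43 below 0 and a median log2 fold change of -0.96, beside 6.34% of all genes called lower. The count of 20 rested on single libraries. It was 9 without point replicate 1, 12 without point replicate 2, 12 without deletion replicate 1, 11 without deletion replicate 2 and 15 without any 1 control library other than W1118 replicate 1, without which it was 22. It was 0 in SE libraries alone, 3 with W1118 as the only control and 31 with the block, which called 19.2% of all genes lower. In adults 33 of the same 43 genes were at least 1.5-fold below the control in the Hinfp rescue, 26 in the His1 rescue and 31 in the Hinfp2 mutant. Of all genes 22.5%, 21.5% and 25% were that much lower, in the same order. Lists written with earlier results of these libraries known are no independent evidence of direction.

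Origin recognition and licensing genes had 3 of 8 called lower (median -0.78), and 5 with the block. The Cdt1 gene dup averaged 13.4 ± 2.35 CPM in mutants and 31.1 ± 4.48 CPM in controls (SD, n = 4 each). Orc6, a subunit of the origin recognition complex, averaged 2.18 CPM in mutants and 6.57 CPM in controls, and Orc2 averaged 2.38 CPM in mutants and 6.16 CPM in controls. The call of Orc6 was lost without point replicate 1 (edgeR, Benjamini-Hochberg adjusted p = 0.0537), and that of Orc2 without any 1 of the 4 mutant libraries (0.0610 to 0.0765).

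Helicase activation genes had 5 of 10 called lower (median -1.0), and 6 with the block. Mcm10, which helps the active helicase and binds its ring, averaged 4.12 ± 0.461 CPM in mutants and 11.5 ± 2.76 CPM in controls (SD, n = 4 each). The Cdc45 gene CDC45L averaged 8.38 CPM in mutants and 17.5 CPM in controls, and the GINS gene Psf1 averaged 1.38 CPM in mutants and 5.52 CPM in controls. The Mcm10 call was lost without point replicate 1 (edgeR, Benjamini-Hochberg adjusted p = 0.0533). That of CDC45L was lost without either point library or deletion replicate 2 (up to 0.0608), and that of Psf1 without point replicate 1, either deletion library or W1118 replicate 2 (up to 0.0791).

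Of the pathway lists the replicative polymerases had the largest share, with 7 of 9 called lower (median -1.51), and all 9 with the block. The primase subunits, which lay the RNA primer, were the leading genes: Prim2 averaged 2.60 ± 0.200 CPM in mutants and 9.93 ± 1.25 CPM in controls, and Prim1 3.77 ± 0.321 CPM in mutants and 12.4 ± 2.47 CPM in controls (SD, n = 4 each). PolA2, a subunit of polymerase alpha, averaged 3.99 CPM in mutants and 11.4 CPM in controls. Prim2 had an edgeR Benjamini-Hochberg adjusted p = 0.00421, and none of these 3 calls was lost on leaving out a library.

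Clamp loader, single-strand binding and Okazaki fragment genes had 3 of 12 called lower (median -0.64), and 7 with the block. The timeless relative timeout averaged 6.44 ± 0.478 CPM in mutants and 21.8 ± 3.94 CPM in controls, and the ligase gene DNAlig1, whose product seals Okazaki fragments, 5.84 ± 0.231 CPM in mutants and 13.0 ± 1.64 CPM in controls (SD, n = 4 each). Claspin, of the replication checkpoint, averaged 11.3 CPM in mutants and 38.2 CPM in controls. The Claspin call was lost without FRT19A replicate 1 or any 1 of the 4 mutant libraries (edgeR, Benjamini-Hochberg adjusted p of up to 0.0940).

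Nucleotide supply genes beside the reductase had 2 of 4 called lower (median -1.5), and all 4 with the block. In each SE library, mutant and control, 1 of the 4 had 0 counts, while in PE libraries 0 of them did. Thymidylate synthase, Ts, had 9.11 and 5.06 CPM in the deletion mutant and 5.95 and 6.11 CPM in the point mutant, against 23.2 and 26.4 CPM in FRT19A controls and 20.7 and 27.7 CPM in W1118 controls, with no overlap (log2 -1.90, edgeR Benjamini-Hochberg adjusted p = 0.00567). The deoxynucleoside kinase gene dnk averaged 9.58 ± 2.52 CPM in mutants and 33.2 ± 9.27 CPM in controls (SD, n = 4 each; log2 -1.79). In adults Ts had 83 counts in the Hinfp rescue, 119 in the His1 rescue, 121 in the Hinfp2 mutant and 406 in the control. Scaled to library size, Ts was at 6.69 CPM in the His1 rescue and 6.19 CPM in the mutant.

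S phase control and E2F/Rb genes had 3 of 13 called lower (median -0.54): mip130, a subunit of the Myb-MuvB and dREAM complexes, E2f2, a repressor E2F, and Cdk2, the kinase partner of CycE. With the block 8 were called lower and 1 higher. Cdk2 averaged 3.51 ± 1.15 CPM in mutants and 10.2 ± 4.01 CPM in controls (SD, n = 4 each; log2 -1.54, edgeR Benjamini-Hochberg adjusted p = 0.0339). The calls of Cdk2 and E2f2 were lost without any 1 library other than W1118 replicate 1 (up to 0.101 and 0.0801). The mip130 call was lost without replicate 2 of FRT19A or of W1118, either point library or deletion replicate 1 (up to 0.0659). Chromatin assembly genes had 2 of 7 called lower (median -0.79), the CAF-1 subunits Caf1-105 and Caf1-55, and 4 with the block. Caf1-55 averaged 23.1 CPM in mutants and 61.2 CPM in controls, and Caf1-105 averaged 6.82 CPM in mutants and 14.2 CPM in controls. The Caf1-55 call was lost without replicate 2 of FRT19A or of W1118 or any 1 of the 4 mutant libraries (edgeR, Benjamini-Hochberg adjusted p of up to 0.0790), and the Caf1-105 call without either point library or deletion replicate 2 (up to 0.0531). The 5 histone rows had 1 called lower (median -0.84), HIS1, and 2 with the block. They summed to 12.6 to 30.7 CPM in SE libraries, with deletion SE (21.4) above W1118 SE (20.8), and to 777 to 1699 CPM in PE libraries. Of all genes 6.34% were called lower, and with the block 19.2% lower and 12.3% higher.

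Mitosis genes had a median above 0. Of 28 G2 and mitosis genes, 2 were called higher and 0 lower in pharate mutants (median 0.55, and 0.38 in SE and 0.76 in PE libraries alone). With the block 5 were called higher and 1 lower. Of all genes 4.59% were called higher and 6.34% lower, and 12.3% and 19.2% with the block. The chromosomal passenger gene borr averaged 4.94 ± 1.32 CPM in mutants and 0.761 ± 0.399 CPM in controls, and the kinesin gene Klp61F 7.28 ± 1.81 CPM in mutants and 2.54 ± 1.09 CPM in controls (SD, n = 4 each). The call of borr was lost without either FRT19A library or any 1 of the 4 mutant libraries, and that of Klp61F without any 1 library other than FRT19A replicate 2 (edgeR, Benjamini-Hochberg adjusted p of up to 0.0763 and 0.106). In adults 8 of 27 mitosis genes were at least 1.5-fold above the control in the Hinfp rescue, 19 of 28 in the His1 rescue and 20 of 28 in the Hinfp2 mutant, beside 19.2%, 20.7% and 37.6% of all genes. Those at least 1.5-fold below it were 5, 0 and 2 in the same order. Beside these counts the testis markers summed to 20.2 CPM in the Hinfp rescue, 34.5 CPM in the His1 rescue and 1169 CPM in the Hinfp2 mutant. In pharate PE libraries they summed to 408 and 476 CPM in mutants and 43.2 and 59.2 CPM in controls. The pharate SE libraries had 726 and 996 CPM in mutants and 550 and 690 CPM in controls. The part of testis markers in the mitosis genes was not tested at either stage.

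**Figure D4:**
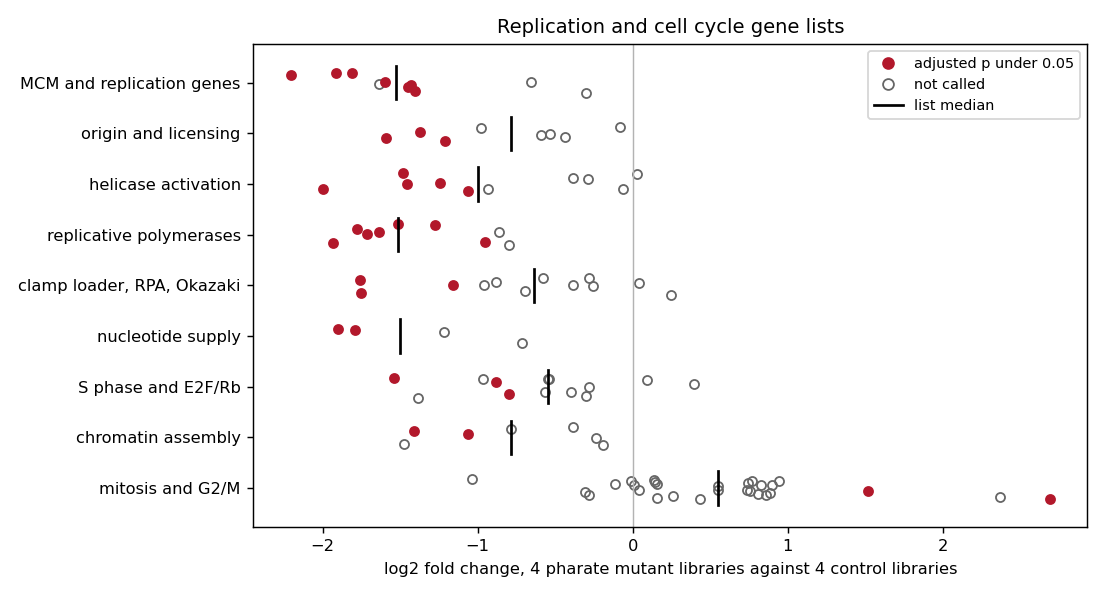
log2 fold change of each gene in 9 lists, 4 pharate mutant against 4 control libraries, with filled points for an edgeR Benjamini-Hochberg adjusted p under 0.05 and a bar for each list's median. The medians of the upper 6 lists lie left of 0, from -1.53 to -0.64, and the mitosis list has a median of 0.55.

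Over all 9 pathway lists 26 of 96 genes were called lower and 2 higher, beside 6.34% and 4.59% of all genes. The count of lower calls rested on single libraries. It was 9 without point replicate 1, 12 without point replicate 2, 14 without deletion replicate 1, 12 without deletion replicate 2, and 16 without replicate 2 of either control strain. It was 19 without FRT19A replicate 1 and 28 without W1118 replicate 1. With the block 46 genes were called lower and 6 higher, beside 19.2% and 12.3% of all genes.

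Among 8959 other genes with a mean log2 CPM of at least 2, those whose level over the 8 pharate libraries was most like the mean of the 10 genes were Prx6005, a peroxiredoxin gene (Pearson r = 0.996), CG15922, CG32750, CG11444 and the mitochondrial elongation factor gene mEFTu1, each with r of at least 0.99. The next 5 were Mcm10, Cyp313a4, CG1750, ATPsynCF6 and mRpL23, a mitochondrial ribosomal protein gene. The libraries share genotype, depth and title tag, so these values only describe the 8 libraries.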

How the data were processed

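Per the labels' protocols, total RNA of about 50 pooled guts per sample was sequenced on a BGISEQ-500. Library preparation was given as ribosomal RNA depletion in one label field (design) and as purification of poly-A RNA in another (extraction). The authors' deposited read counts per gene were used unchanged for the 8 pharate and 4 adult libraries. Per the submitters' processing notes, STAR 2.5.3a and featureCounts 1.5.2 made the pharate counts, with BDGP6 and dm6 as builds. For adults the notes name DESeq2, edgeR 3.28.1, featureCounts 1.6.2, STAR 2.5.3a, Bowtie2 2.3.5 and Trimmomatic 0.39, with no role for each. Use of strand is not given in the sources used here. The authors' deposited log2 fold changes of the adult table were only quoted. Another 120 per-sample columns and 156 adult transposon rows were not used here.

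Genes were matched by FlyBase ID (16403 pharate rows had one in the Ensembl release 115 annotation or in a reference list of gene names). The Ensembl annotation gave the BDGP6 coordinates. Levels are CPM (counts scaled to TMM effective library sizes), per kb where stated over the length the authors deposited. Pharate libraries were compared with edgeR 4.0.16 quasi-likelihood tests (two-sided, filterByExpr with a minimum count of 10, TMM, R 4.3.3) and Benjamini-Hochberg adjustment over all 13244 genes, threshold 0.05. Standard errors are the log2 fold change over the root of F. Designs were 4 mutant against 4 control libraries, 1 fit of 4 genotypes, and the interaction with the title tag. DESeq2 1.42.0, other scalings, no filter, subsets of libraries and leaving out each library were alternatives. The fitting code was tested on simulated data.

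The replicate number of a pharate library is its SE or PE tag. Differences of replicate 2 minus replicate 1 correlated between groups at r of 0.651 to 0.851 over 13244 genes in all 6 pairs of groups, so the numbers pair the libraries, and the counts and calls that the block changed are printed beside the main ones.

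Adult libraries have no replicates. They were compared by log2 ratios with exact binomial 95% intervals and counts with exact Poisson intervals, which cover counting error only. Orc3 and Samhd1 had no match and histone rows of the adult table were not analysed here.

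The 10 genes, the 9 pathway lists and the 7 marker lists were chosen with earlier results of these data known. Named were the 10 genes, Hinfp and HIS1, in each list up to 3 called genes in order of adjusted p (without a call, the 2 most abundant), and the 10 genes most like the mean of the 10. Only some of the marker genes so chosen are named in the text.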

Additional observations from a re-analysis of the deposited data

Results flagged for a closer look

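PCNA in the pharate control libraries had 1 library apart from the others: FRT19A replicate 1 (SE) at 40.9 CPM, against 27.2 to 29.3 CPM in the other 3 controls. Without that library PCNA kept its call. CycE in the pharate mutant libraries had deletion replicate 2 (PE) at 11.5 CPM, against 14.2 to 14.8 CPM in the other 3 mutants. Of 20 groups of 4 libraries examined for a gap above Dixon's critical value at 95%, these 2 were beyond it, and chance puts about 1 in 20 groups there.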

How the results depend on the processing

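The 7 calls among the 10 genes held under RLE, upper quartile and library-total scaling, without the filter, with DESeq2, with the block, with FRT19A as the only control and on leaving out each library. They fell to 0 in SE libraries alone and 1 with W1118 alone. The number of all genes called lower (840) was 2543 with the replicate block, 0 in SE libraries, 2078 in PE libraries, 448 with FRT19A alone, 75 with W1118 alone, 1514 with DESeq2 and 195 to 1146 on leaving out 1 library. The number called higher (608) was 1634, 0, 2797, 339, 173, 1215 and 250 to 637 in the same order. Pathway genes called lower (26) were 46 with the block, 0 in SE libraries, 3 with W1118 alone and 9 to 28 on leaving out 1 library. Those called higher (2) were 6 with the block, 1 without the filter, 0 in SE libraries, 4 in PE libraries, 1 with FRT19A alone, 0 with W1118 alone, 5 with DESeq2 and 0 to 2 on leaving out 1 library. Single alleles against single strains had 0 called, but 9, 9, 8 and 5 with the block and 7 each with DESeq2. In adults the 2 genes lower in the Hinfp rescue than in the mutant became 6 with library totals and 0 at 2-fold, the His1 rescue over the mutant gave 0 lower and 0 higher at 2-fold, and the 6 genes lower in the Hinfp than in the His1 rescue became 1. No called gene among the 10 changed direction, but uncalled Mcm5, at 0.14 in the Hinfp rescue over the mutant, was -0.02 with library totals. Apart from settings with fewer libraries or a higher fold, the cause was not tested. In the comparison of 4 mutant with 4 control libraries, the block changed no other call among the 10 genes than those given for Mcm7 and RnrS. At 28 to 123 counts in SE libraries, Mcm7 was the least deeply counted of the 10 genes, and adult CycE rested on 67 to 200 counts.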
